A study of Mus musculus with 6 samples.

Results

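The aminoacyl-tRNA synthetases were examined as a family of 36 genes, 20 encoding cytosolic enzymes and 16 encoding mitochondrial ones, out of 22219 gene symbols in the deposited table. Members were chosen by symbol, with earlier results of these data known. The cytosolic set holds Aars, Cars, Dars, Eprs, Farsa, Farsb, Gars, Hars, Iars, Kars, Lars, Mars1, Nars, Qars, Rars, Sars, Tars, Vars, Wars and Yars, and the mitochondrial set Aars2, Cars2, Ears2, Fars2, Hars2, Iars2, Lars2, Mars2, Nars2, Pars2, Rars2, Sars2, Tars2, Vars2, Wars2 and Yars2. Every member was in the table, Mars1 under its older symbol Mars, and every member passed the filter on low counts. RNA was taken from whole testes of mice on day 10. The 3 cKO libraries came from mice whose floxed Eif5 alleles were deleted in germ cells by Cre under the Stra8 promoter, and the 3 Control libraries came from mice whose genotype is not stated in the labels. Loss of Eif5 therefore cannot be told apart from an effect of Cre itself. Because the tissue was whole testis, somatic cells keep the gene in cKO animals.

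An aminoacyl-tRNA synthetase joins 1 amino acid to its matching tRNA and so sets the supply of charged tRNA to the ribosome. Mammals use separate nuclear genes for most cytosolic and mitochondrial enzymes, while glycyl and lysyl enzymes of both compartments come from a single gene each (Gars and Kars). When amino acids run short, or eIF2 is phosphorylated for another reason, the transcription factor ATF4 is made and induces a subset of the cytosolic synthetase genes together with amino acid transporters and biosynthetic enzymes. eIF5 is the initiation factor that promotes GTP hydrolysis by eIF2 in the preinitiation complex.

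Recovered reads came to between 32555443 and 48015318 in the cKO libraries and between 33631996 and 48409550 in the Control libraries. Values are given as normalised read counts, the number of reads divided by 1 size factor per library, and fold changes are on the scale of log2(value + 2). A gene was called where limma gave a Benjamini-Hochberg adjusted p under 0.05 over all 17570 genes tested. Eif5 itself stood at 8548.1, 8981.8 and 9574.5 in cKO testes, against 11964.5, 10550.7 and 11186.5 in Control testes, a log2 fold change of -0.31 (SE 0.0947, limma adjusted p = 0.024) with every cKO library below every Control library. That call ended without cKO replicate 1 (log2 fold change -0.27, limma adjusted p = 0.13) or cKO replicate 2 (-0.31, limma adjusted p = 0.0875), with a range of 2.08e-06 to 0.13 over the alternatives. Markers of several cell types were called, beside 9.63% of all genes tested called higher and 10.4% called lower. Of these markers, 10 of 10 meiotic prophase genes, 5 of 6 general germ cell genes and 3 of 9 spermatogonial genes were lower (1 spermatogonial gene was higher). Higher were 6 of 11 Sertoli, 7 of 8 Leydig, 5 of 7 macrophage and 2 of 5 erythroid genes. Of the remaining markers, 2 of 5 peritubular myoid genes were lower, and 1 of 5 endothelial genes went each way. The summed level of the general germ cell markers was 20145.0 to 21523.8 in cKO and 28991.4 to 35735.1 in Control, that of the meiotic markers 7489.3 to 9196.5 in cKO and 20792.3 to 25706.2 in Control, that of the spermatogonial markers 25403.5 to 30272.1 in cKO and 34353.3 to 39796.8 in Control, and that of the Sertoli markers 444421.9 to 499684.6 in cKO and 289502.5 to 408272.2 in Control. The Leydig markers summed to 29895.1 to 33843.5 in cKO and 19713.2 to 24515.5 in Control, the macrophage markers to 6048.6 to 7290.1 in cKO and 4656.5 to 6083.9 in Control, and the erythroid markers to 4466.2 to 11255.3 in cKO and 3420.3 to 4361.4 in Control. The called erythroid genes stood highest in cKO replicate 1. Hba-a1 had 3248.4, 1649.6 and 1131.7 in cKO and 1068.0, 1194.3 and 946.4 in Control. Hbb-bs had 6900.8, 2815.7 and 2821.9 in cKO and 2564.2, 2658.6 and 2066.1 in Control. The myoid markers summed to 24316.7 to 25762.4 in cKO and 26383.2 to 28097.5 in Control, and the endothelial markers to 8177.1 to 8940.8 in cKO and 6755.5 to 8293.8 in Control. No marker was at 0 in any library, and the part of these shifts in the synthetase values below was not tested. In whole testis, fewer cells of a type and less RNA per cell cannot be told apart.

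Most synthetase genes did not pass the test. Of the 36 members, 2 were called higher in cKO (Cars and Lars2) and 2 lower (Eprs and Mars2), which is 11.1% of the family, against 20.0% of all genes tested. By direction, 9.63% of all genes tested were called higher and 10.4% lower. Each set contributed 1 gene in each direction. The median log2 fold change was -0.10 over the 20 cytosolic genes and -0.13 over the 16 mitochondrial genes, against 0.01 over all genes tested. Leaving out Control replicate 1 or cKO replicate 3 gave cytosolic medians of -0.03 each and mitochondrial medians of -0.07 and -0.05, leaving out cKO replicate 1 gave a mitochondrial median of -0.05, and library totals gave -0.18 and -0.22. Between the called genes, the 32 members that were not called lay between -0.31 (Vars) and 0.26 (Yars and Sars). Standard errors across the family ran from 0.0878 to 0.168. Scaling to the Sertoli cell markers called 29 members lower and 0 higher. The same scaling called 56% of all genes tested, 99.4% of those calls being lower, and moved the median of all genes to -0.44. Relative to that shift the medians were -0.11 for the cytosolic and -0.14 for the mitochondrial genes.

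**Figure D1:**
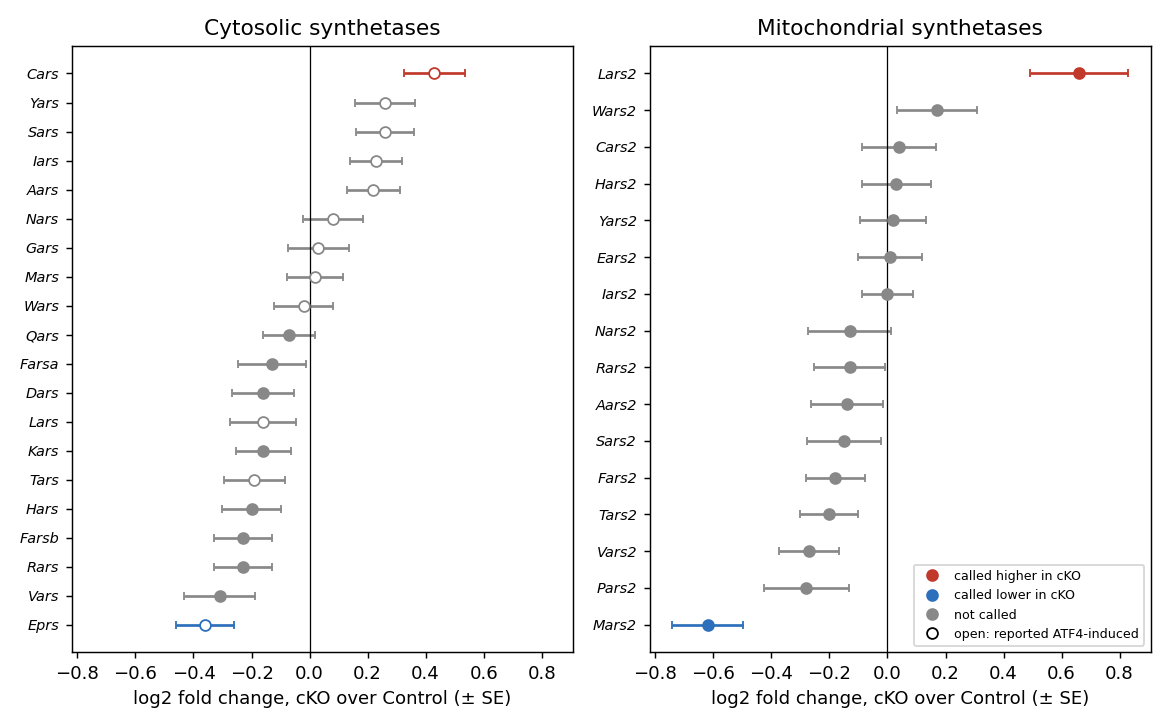
Log2 fold change of each of the 36 synthetase genes, cKO over Control, with its standard error from limma (3 libraries per group); red and blue points were called higher and lower, grey points were not called, and open symbols mark cytosolic genes reported as ATF4-induced. Cars (0.43) and Lars2 (0.66) stand at the top and Eprs (-0.36) and Mars2 (-0.62) at the bottom of their sets.

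Cars, the cysteinyl-tRNA synthetase, rose. Its normalised read count was 1220.8, 1289.8 and 1182.6 in cKO testes, against 982.2, 917.8 and 846.1 in Control testes. All 3 cKO libraries lay above all 3 Control libraries. The means were 1231.1 ± 54.3 in cKO and 915.3 ± 68.1 in Control (SD, n = 3 each), a log2 fold change of 0.43 or 1.35-fold (SE 0.105, limma adjusted p = 0.00691). Under scaling to the Sertoli markers its log2 fold change was -0.02, which is 0.42 above the median of all genes under that scaling, and it was not called (limma adjusted p = 0.896; range over the alternatives 0.00129 to 0.896). Cars was called higher in the other 14 of 15 alternatives.

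Eprs, the glutamyl-prolyl-tRNA synthetase, which carries both enzymes in 1 chain and sits in the multi-synthetase complex, fell. It had 3960.7, 4350.4 and 4160.8 normalised read counts in cKO testes, against 5973.0, 5443.6 and 4638.2 in Control testes. The groups did not overlap, and Control replicate 3 was the Control library nearest to the cKO libraries. The means were 4157.3 ± 194.9 in cKO and 5351.6 ± 672.2 in Control (SD, n = 3 each), a log2 fold change of -0.36 (SE 0.0995, limma adjusted p = 0.015). The call ended without cKO replicate 1 (log2 fold change -0.32, limma adjusted p = 0.0791) or cKO replicate 3 (-0.36, limma adjusted p = 0.0515). The range of adjusted p was 4.25e-06 to 0.0791 over the alternatives. Those 2 fits called 12.8% and 12.6% of all genes tested, against 20.0% with all libraries.

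**Figure D2:**
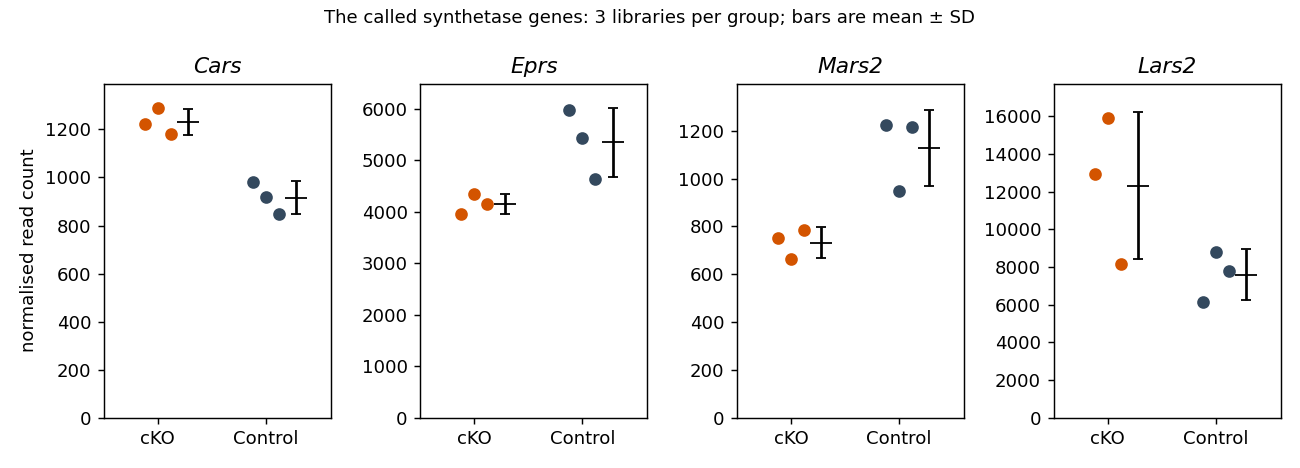
Normalised read counts of the called synthetase genes in each library, cKO at the left and Control at the right of each panel; bars are the mean ± SD of 3 libraries. Cars is higher and Eprs and Mars2 are lower in every cKO library than in any Control library, whereas for Lars2 cKO replicate 3 (8133.8) lies below Control replicate 2 (8801.2).

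Cars and Eprs both belong to the 12 cytosolic genes reported as ATF4-induced (Aars, Cars, Eprs, Gars, Iars, Lars, Mars, Nars, Sars, Tars, Wars and Yars). Within this group 1 gene was called higher, 1 was called lower and 10 were not called. The share called was 16.7%, near the 20.0% of all genes tested. Their median was 0.05 on the log2 scale. Besides Cars, the groups did not overlap for Iars, Aars and Yars, each with the cKO libraries on top, so that 4 of the 36 members were higher without overlap (18.3% of all genes tested). None of these other genes passed. Iars, the isoleucyl enzyme, had 4725.8, 5012.1 and 4621.2 in cKO and 4266.0, 4115.3 and 3841.1 in Control, a log2 fold change of 0.23 (SE 0.0897, limma adjusted p = 0.0709). It was called without Control replicate 1 (limma adjusted p = 0.0391) and by DESeq2 (adjusted p = 0.044), with a range of 0.0391 to 0.337 over the alternatives. Yars, the tyrosyl enzyme, had 1901.6, 1899.3 and 1634.5 in cKO and 1562.8, 1600.4 and 1359.6 in Control (log2 fold change 0.26, SE 0.103, limma adjusted p = 0.0739). Aars, the alanyl enzyme, had 3866.2, 3828.4 and 3421.7 in cKO and 3169.9, 3324.9 and 3030.0 in Control (log2 fold change 0.22, SE 0.0917, limma adjusted p = 0.0927). Sars, the seryl enzyme, had a log2 fold change of 0.26 and groups that touched, with 2979.5 in the lowest cKO and 2987.4 in the highest Control library (SE 0.0996, limma adjusted p = 0.0671). Sars was called without Control replicate 2 (limma adjusted p = 0.026, range 0.026 to 0.292). The remaining ATF4-reported genes lay near or below 0: Nars at 0.08, Gars at 0.03, Mars at 0.02, Wars at -0.02, Lars at -0.16 and Tars at -0.19 on the log2 scale, none of them called.

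The other 8 cytosolic genes (Dars, Farsa, Farsb, Hars, Kars, Qars, Rars and Vars) all had negative log2 fold changes, between -0.31 and -0.07 with a median of -0.18, and none was called. Vars, the valyl enzyme, had the most negative value, with 3248.4, 3447.7 and 2629.3 in cKO and 4150.6, 4361.4 and 3123.7 in Control (log2 fold change -0.31, SE 0.121, limma adjusted p = 0.0705). The groups overlapped, with Control replicate 3 below cKO replicates 1 and 2. Vars was called lower in 5 of 15 alternatives, with a range of 4.49e-05 to 0.336 over all of them. These included leaving out Control replicate 3 (limma adjusted p = 0.00817) or cKO replicate 2 (limma adjusted p = 0.0499). Library totals (limma adjusted p = 0.0311) and a replicate block (limma adjusted p = 0.0256) were also among them. Rars, the arginyl enzyme, was lower without overlap (-0.23, SE 0.101, limma adjusted p = 0.108), and it was called with library totals (limma adjusted p = 0.0495; range 4.51e-05 to 0.343). Rars and Eprs were the cytosolic members lower without overlap, and with Fars2, Mars2, Pars2, Tars2 and Vars2 they made 7 of 36 in the family (18.4% of all genes tested). Farsb (-0.23), Hars (-0.20), Kars (-0.16), Dars (-0.16), Farsa (-0.13) and Qars (-0.07) overlapped between groups.

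Ratios taken within a library do not depend on how libraries are scaled to each other. The summed value of the 12 reported ATF4-induced genes over that of the other 8 cytosolic genes was 1.65, 1.64 and 1.66 in cKO testes, against 1.39, 1.44 and 1.39 in Control testes. All cKO ratios were above all Control ratios, and the gap was wider than the spread within either group. The ratio of Cars to Eprs was 0.308, 0.296 and 0.284 in cKO, against 0.164, 0.169 and 0.182 in Control. That of Eprs to Iars was 0.838, 0.868 and 0.900 in cKO, against 1.40, 1.32 and 1.21 in Control. All of these ratios were computed with the values in view and carry no test. Cars and Iars were each higher without overlap and Eprs was lower without overlap. The ratios of Cars to Eprs and of Eprs to Iars therefore had to separate the groups and add nothing to the values of the single genes.

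**Figure D3:**
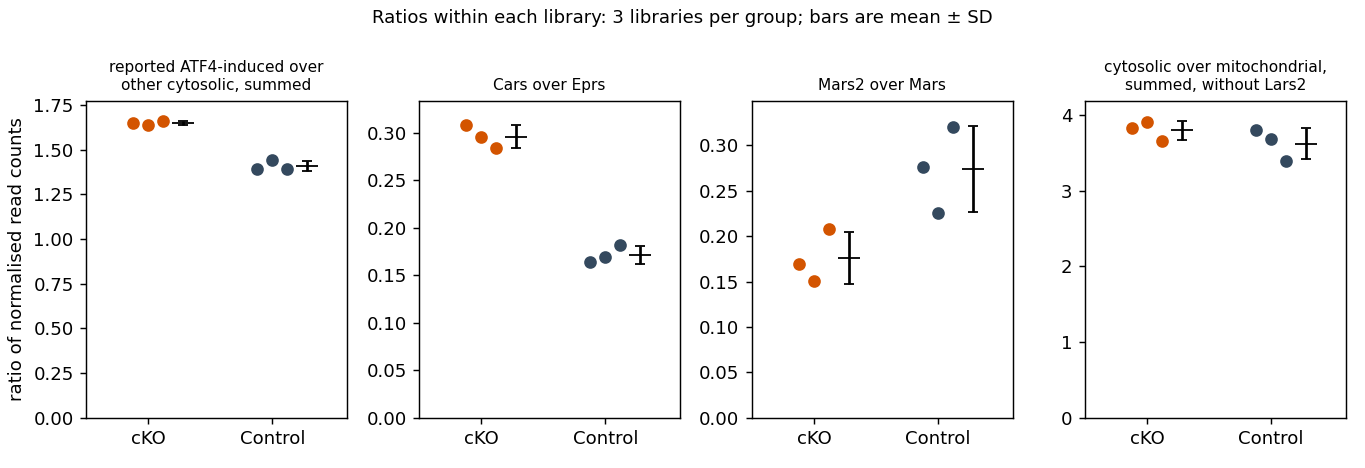
Ratios of normalised read counts computed within each library, cKO at the left and Control at the right of each panel, with bars for the mean ± SD of 3 libraries. The first panel shows 1.64 to 1.66 in cKO against 1.39 to 1.44 in Control, the next panels show Cars over Eprs and Mars2 over Mars without overlap between groups, and the summed cytosolic over mitochondrial ratio without Lars2 overlaps. The separation of Cars over Eprs was fixed in advance, because Cars was higher and Eprs lower without overlap.

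ATF4 pairs with a C/EBP factor on a composite element whose core reads TGATGNAA. Promoter windows from RefSeq (GRCm38.p6), 250 bases before to 50 after the start site, were at hand for 27 of the 36 members and were searched for this core on both strands. Matches were found for Aars, Gars, Iars, Tars and Yars. These are 5 of the 8 reported ATF4-induced genes with a window, while 0 of 5 other cytosolic genes and 0 of 14 mitochondrial genes held a match (the difference was not tested), and 4.51% of 27025 genes with a window held one. Among the 11 comparison genes of the integrated stress response with a window, 4 held a match (Asns, Chac1, Slc7a11 and Trib3). The 30-base stretches around the matches of Gars, Iars, Tars and Yars are given to show the matched letters in their context; they were picked for the match, outside the naming rule. Capitals mark the 8-base match, positions count from the start site to its first base, and each is written 5′ to 3′ on the strand of its gene; all but that of Yars show the reverse complement TTNCATCA.
Gars, position -30, chr6:55037960-55037989, plus strand: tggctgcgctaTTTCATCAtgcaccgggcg
Iars, position 8, chr13:49682126-49682155, plus strand: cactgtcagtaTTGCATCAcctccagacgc
Tars, position -15, chr15:11399655-11399684, minus strand: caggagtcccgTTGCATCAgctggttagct
Yars, position 4, chr4:129189895-129189924, plus strand: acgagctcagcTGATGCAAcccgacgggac
None of the genes with a match was called. Iars (0.23), Yars (0.26) and Aars (0.22) had positive log2 fold changes, Gars (0.03, SE 0.106) was near 0 and Tars was at -0.19 (SE 0.104). Whether a match goes with a direction was not tested. Of the called members, Cars had no window and was not searched. Eprs, Lars2 and Mars2 had windows and no match. The 60 bases before their start sites are given as the promoters of called genes.
Eprs, chr1:185362984-185363043, plus strand: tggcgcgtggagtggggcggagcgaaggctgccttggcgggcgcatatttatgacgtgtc
Lars2, chr9:123366867-123366926, plus strand: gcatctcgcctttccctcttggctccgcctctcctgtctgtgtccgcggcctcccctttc
Mars2, chr1:55237117-55237176, plus strand: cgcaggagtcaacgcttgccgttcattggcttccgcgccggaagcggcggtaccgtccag
A match describes letters in the window, and no binding was measured.

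Among the mitochondrial genes, Mars2, the methionyl-tRNA synthetase of the organelle, fell. It had 752.8, 661.8 and 782.7 normalised read counts in cKO testes, against 1222.6, 946.1 and 1216.8 in Control testes. Every cKO library was below every Control library. The means were 732.4 ± 63.0 in cKO and 1128.5 ± 158.0 in Control (SD, n = 3 each), a log2 fold change of -0.62 (SE 0.121, limma adjusted p = 0.00131). Mars2 was called lower in 15 of 15 alternatives, with log2 fold changes from -1.06 to -0.54. Its cytosolic partner Mars had a log2 fold change of 0.02 (SE 0.0967, limma adjusted p = 0.917). The exons of Mars overlap those of Ddit3 on the opposite strand, and Ddit3 was called higher (log2 fold change 0.63). The part of Ddit3 reads in the Mars value was not tested. The ratio of Mars2 to Mars was 0.169, 0.151 and 0.208 in cKO, against 0.276, 0.226 and 0.320 in Control.

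Lars2, the mitochondrial leucyl-tRNA synthetase, was called higher, with groups that overlapped. Its normalised read count was 12920.6, 15878.8 and 8133.8 in cKO testes, against 6135.7, 8801.2 and 7798.9 in Control testes. The first and second cKO libraries were high, and the third lay between Control replicates 2 and 3. The means were 12311.1 ± 3908.3 in cKO and 7578.6 ± 1346.3 in Control (SD, n = 3 each), a log2 fold change of 0.66 (SE 0.168, limma adjusted p = 0.00836). The call ended without cKO replicate 2 (log2 fold change 0.45, limma adjusted p = 0.0504), with DESeq2 (adjusted p = 0.0779) and under scaling to the Sertoli markers (0.21, limma adjusted p = 0.264), with a range of 7.9e-05 to 0.264 over the alternatives. The Lars2 row rests on a transcript that shares sequence with another: in GENCODE M21, 72 bases of the 3′ UTR of Lars2-201 were 98.6% identical to Gm15564, so its reads are uncertain where the 2 were not separated. Gm15564 was at 96.8, 98.8 and 48.5 in cKO and at 36.2, 96.9 and 73.1 in Control. A row of ribosomal RNA, Rn18s-rs5, had 67216.6, 69845.2 and 46435.4 in cKO and 36701.0, 48395.5 and 46767.5 in Control, high in the same cKO libraries as Lars2 and lowest in the same Control library (log2 fold change 0.46, SE 0.155, limma adjusted p = 0.0392). The mitochondrial ribosomal RNA rows did not follow this order: mt-Rnr1 had 37963.9, 27915.6 and 32919.4 in cKO and 23014.0, 19759.1 and 37737.6 in Control, and mt-Rnr2 had 58167.8, 39922.7 and 47658.0 in cKO and 31952.8, 33396.3 and 52311.7 in Control. In both, cKO replicate 2 was the lowest cKO library and Control replicate 3 the highest Control library. All 4 rows were chosen after their values were seen, and their part in the Lars2 value was not tested.

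The other 14 mitochondrial genes were not called. Wars2 (0.17), Cars2 (0.04), Hars2 (0.03), Yars2 (0.02), Ears2 (0.01) and Iars2 (0.00) were near 0 or above it on the log2 scale, and the groups overlapped for each of them. Nars2 (-0.13), Rars2 (-0.13), Aars2 (-0.14), Sars2 (-0.15), Fars2 (-0.18), Tars2 (-0.20), Vars2 (-0.27) and Pars2 (-0.28) lay below 0. The groups did not overlap for Fars2, Tars2, Vars2 and Pars2, the phenylalanyl, threonyl, valyl and prolyl enzymes. Vars2 had the lowest adjusted p of these genes (SE 0.104, limma adjusted p = 0.0718), and it was called with library totals (limma adjusted p = 0.0316; range 2.04e-05 to 0.266).

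The ratio of the summed levels of the sets turned on Lars2, while the mitochondrial median was -0.13 with and without it. The summed cytosolic over the summed mitochondrial value was 2.04, 1.91 and 2.33 in cKO, against 2.76, 2.38 and 2.25 in Control, and the groups overlapped. Lars2 made up 46.8%, 51.2% and 36.2% of the mitochondrial sum in cKO and 27.4%, 35.4% and 33.6% in Control. Without it the ratio was 3.83, 3.91 and 3.66 in cKO, against 3.80, 3.68 and 3.39 in Control, again with overlap. The mean log2 ratio, cKO minus Control, was -0.23 with Lars2 and 0.07 without it. With Lars2, leaving out Control replicate 1 gave -0.15 and leaving out cKO replicate 3 gave -0.31, the ends of its leave-one-out range. Summed over all other mitochondrial members, the value was 14716.4, 15115.9 and 14314.5 in cKO, against 16285.9, 16073.8 and 15400.6 in Control. Every cKO sum without Lars2 was below every Control sum. Lars2, the 1 mitochondrial member called higher, was left out after its values were seen. Of the 15 members left, 5 were lower and 0 were higher without overlap. With Lars2 the sums overlapped, at 22448.3 to 30994.7 in cKO and 22421.6 to 24874.9 in Control. Unlike the ratios, these sums depend on how libraries are scaled to each other.

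Cytosolic and mitochondrial enzymes for the same amino acid were set against each other in 16 pairs, Eprs being paired with both Ears2 and Pars2. The cytosolic to mitochondrial ratio did not overlap between groups in 9 pairs, 5 with the cKO ratios on top (Aars, Cars, Iars, Mars and Sars over their partners) and 4 with the Control ratios on top (Hars, Lars, Rars and Eprs over Ears2). For single genes, 18.3% and 18.4% of all those tested had groups that did not overlap in each direction. The matching share for ratios between genes was not computed, so these shares give no baseline for the pairs. In a 2-sided exact permutation test, 3 libraries against 3 cannot go below p = 0.1, which each of the 9 pairs reached (adjusted p = 0.178 over the 16 pairs), so none could pass. The Sars to Sars2 ratio was 4.39, 4.99 and 5.51 in cKO, against 3.41, 4.20 and 3.57 in Control, and that of Hars to Hars2 was 2.24, 2.10 and 2.15 in cKO, against 2.44, 2.67 and 2.47 in Control. Hars and Hars2 overlap on opposite strands. The exons of 9 members overlapped those of another gene in the table, in each case on the opposite strand: Hars and Hars2 each other, Mars with Ddit3, and Farsb, Yars, Ears2, Fars2, Iars2 and Nars2 with others. The strand setting is not given in the sources used here, so reads of such partners may not have been told apart.

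Genes that work beside the synthetases were called in small numbers, in lists of 3 to 13 genes. Called genes made up 23.1% of the tRNA maturation and export list and 25% each of the amidation and formylation list and the mitochondrial elongation factor list, near the 20.0% of all genes tested. The scaffold genes of the multi-synthetase complex, Aimp1, Aimp2 and Eef1e1, had log2 fold changes of -0.11, -0.24 and -0.01, and 0 of 3 were called. Of the 8 enzymes of that complex, 1 was called lower (Eprs), with a median of -0.16. Of 4 genes that amidate or formylate mitochondrial aminoacyl-tRNA, Qrsl1, a subunit of the glutamyl-tRNA amidotransferase, was lower, with 545.7, 501.9 and 407.1 in cKO and 740.3, 712.0 and 652.0 in Control (log2 fold change -0.54, SE 0.131, limma adjusted p = 0.0064). Its partners Gatb and Gatc and the formyltransferase gene Mtfmt were not called. Among 13 genes of tRNA maturation and export, 1 was higher and 2 lower, with a median of -0.12. Tsen54, a subunit of the tRNA splicing endonuclease, had 675.1, 662.6 and 588.9 in cKO and 926.0, 1075.6 and 923.5 in Control (log2 fold change -0.60, SE 0.115, limma adjusted p = 0.00104). Elac2, which trims the 3′ end of tRNA, had a log2 fold change of -0.38 (limma adjusted p = 0.0199) and was called in 11 of 15 alternatives. The Elac2 call ended without Control replicate 1 or 2 or without cKO replicate 1 or 3 (log2 fold change -0.36 to -0.3, limma adjusted p of 0.069 to 0.0769). Xpot, the tRNA exporter and a reported ATF4 target, had 4325.2, 4728.6 and 4049.3 in cKO and 3962.8, 3474.1 and 3330.9 in Control (log2 fold change 0.28, SE 0.0967, limma adjusted p = 0.0429). Xpot was called in 7 of 15 alternatives. The Xpot call ended without Control replicate 2 or 3 or any cKO replicate (log2 fold change 0.23 to 0.34, limma adjusted p of 0.0543 to 0.214). It also ended with edgeR (adjusted p = 0.0563) and with library totals (limma adjusted p = 0.212). Under scaling to the Sertoli markers the log2 fold change of Xpot was -0.17. Of 4 mitochondrial elongation factor genes, Tufm was lower (-0.32, SE 0.0975, limma adjusted p = 0.0263). Its call ended without Control replicate 1 or any cKO replicate (log2 fold change -0.34 to -0.24, limma adjusted p of 0.0566 to 0.0979). No gene passed among the genes of elongation factors 1 and 2: 0 of 5 were called. Of 5 synthetase-like and trans-editing genes, 4 were tested and 0 called; Aarsd1 was below the filter.

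Comparison genes of the integrated stress response were mostly higher in the same libraries. Of 12, 10 were called higher and 0 were called lower, beside 9.63% and 10.4% of all genes tested. Their median was 0.47 on the log2 scale, against 0.01 over all genes tested. Atf4 itself had 9371.7, 8971.4 and 9324.9 in cKO and 5178.7, 5843.1 and 6115.5 in Control (log2 fold change 0.69, SE 0.0932, limma adjusted p = 2.72e-05). Chac1, a glutathione-degrading enzyme gene, was at 2.95, Trib3, a pseudokinase gene, at 1.04 and Ddit3, which encodes CHOP, at 0.63 on the log2 scale, all called. Ddit3 was not called under scaling to the Sertoli markers (0.18, limma adjusted p = 0.204). The list was drawn up with results of these libraries known, so its direction is no independent evidence, and the difference between the lists was not tested.

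**Figure D4:**
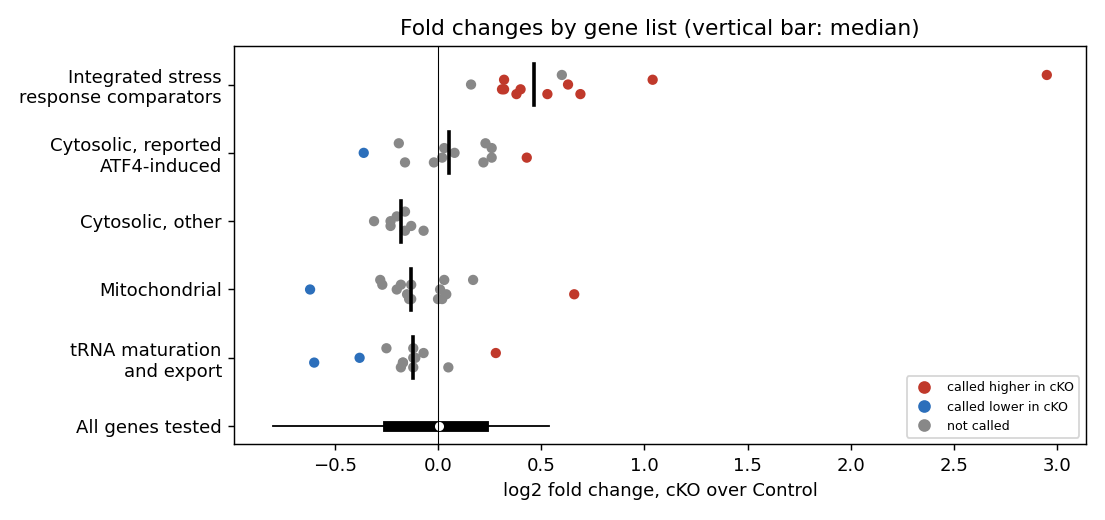
Log2 fold changes by gene list, 1 point per tested gene coloured by call, with the median as a vertical bar; for all 17570 genes tested the thick line spans the 25th to 75th percentile, the thin line the 5th to 95th and the white dot is the median. The medians are 0.47 for the integrated stress response comparators, 0.05 for the cytosolic genes reported as ATF4-induced, -0.18 for the other cytosolic genes and -0.13 for the mitochondrial genes.

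Levels were compared between members per kilobase of the longest protein-coding transcript in GENCODE M21, which may differ from the annotation behind the table. Cytosolic genes ran from Gars, with 2107.8 per kb in cKO and 2069.8 per kb in Control, down to Lars at 334.9 per kb in cKO and 376.5 per kb in Control and Cars at 382.1 per kb in cKO and 284.1 per kb in Control. Cars was the lowest cytosolic gene in Control, and in cKO its range of 367.0 to 400.3 per kb lay above that of Lars (325.4 to 350.3 per kb) and overlapped that of Tars (367.0 to 407.9 per kb). Gars and Kars, at the top, overlapped in both groups: Gars spanned 1855.7 to 2239.2 per kb in cKO and 1780.2 to 2263.0 per kb in Control, and Kars 1667.2 to 1858.2 per kb in cKO and 1773.7 to 2107.3 per kb in Control. Apart from Lars2 (3161.5 per kb in cKO and 1946.2 per kb in Control), the mitochondrial genes ran from Iars2, with 713.2 per kb in cKO and 714.8 per kb in Control, to Mars2 at 64.8 per kb in cKO and 99.9 per kb in Control and Wars2 at 94.1 per kb in cKO and 83.4 per kb in Control. The annotated Mars2 transcript is 11.3 kb long, so its level per kb depends on how much of it the authors' annotation holds.

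**Figure D5:**
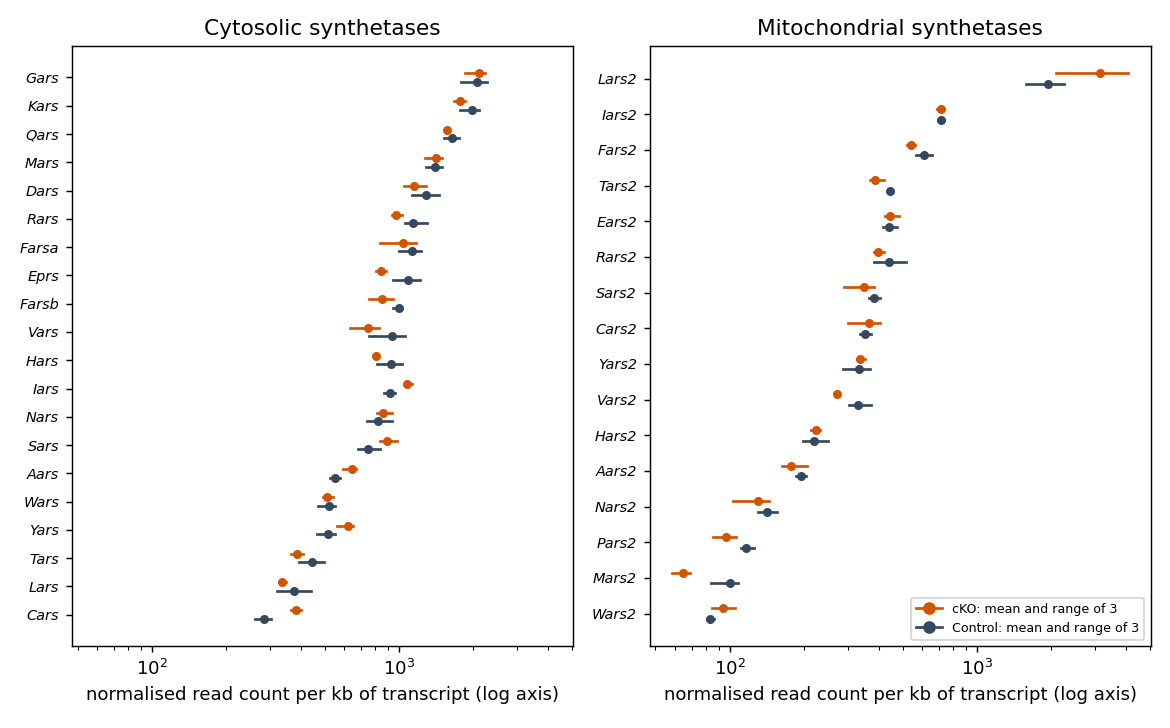
Level of each member per kb of transcript (log axis), with cKO drawn above Control; points are means and lines span the 3 libraries of a group. Gars heads the cytosolic set at 2107.8 per kb in cKO and 2069.8 in Control, Cars closes it in Control at 284.1, and Lars2 stands apart from the other mitochondrial genes at 3161.5 in cKO and 1946.2 in Control.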

How the data were processed

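A column per library and 22219 gene symbols make up the authors' single table, and all 6 columns were used. Although the table is named for raw counts, its deposited values are a signal of reads divided by 1 size factor per library: in each column 100% of values were whole multiples of 1 step (tolerance 1e-06), and the inverse steps equalled the median-of-ratios size factors (0.825 to 1.35) in all 6 libraries. The submitters' processing notes list StringTie 1.3.1 and RSEM without saying what each did. Not given in the sources used here are the aligner, genome build, annotation and strand setting. Among recovered counts of 1 to 20, 75.1% to 80.9% per library were even; the cause was not tested.

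The recovered reads were filtered with edgeR's filterByExpr (minimum count 10); 17570 genes passed and 4649 did not. Values on the log2(value + 2) scale were tested 2-sided with limma 3.58.1, its prior variance following the mean level, cKO over Control, with no covariate and Benjamini-Hochberg adjustment over all genes tested. Such fold changes understate those of low genes. edgeR 4.0.16 (quasi-likelihood) and DESeq2 1.42.0 on recovered reads were alternatives, in R 4.3.3, and the scripts were tested on simulated data. The other alternatives were pseudocounts of 0.5 and 8, no filter, scaling by library totals, TMM factors or the Sertoli markers, a replicate block and leaving out each library.

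The members, the gene lists and the rule for named genes were chosen with earlier results of these data known. Every member is named; called members get their values in every library; of the other lists at most 4 called genes are named. Whether replicates are different mice is not stated in the labels, so p-values measure only how far these samples spread, possibly for technical reasons. No 2 libraries were duplicates (chi-square per degree of freedom of 10.02 or more). Names, lengths and overlaps came from GENCODE M21, promoters from RefSeq GRCm38.p6. The promoter stretches of Aars are not reported here.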

Additional observations from a re-analysis of the deposited data

How the results depend on the processing

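Across 15 alternatives for each of the 36 members, 498 of 540 member results kept their call status, 6 lost a call and 36 gained one, 27 of the gains under scaling to the Sertoli markers and 9 elsewhere. The sign of the log2 fold change differed in 37 results, 13 of them under the Sertoli scaling; the other 24, all uncalled, lay between -0.08 and 0.03. The Sertoli scaling moved the median of all genes to -0.44 and 99.4% of calls to lower (51.9% with the deposited factors, 75.6% with library totals). Among genes called with either scaling, log2 fold changes that turned negative there were Cars -0.02, Gars -0.42, Mars -0.43, Nars -0.37, Cars2 -0.41, Ears2 -0.44, Hars2 -0.42 and Yars2 -0.43, and outside the family Xpot -0.17. With that scaling 63 genes were higher and 9778 lower, 0 cytosolic and 0 mitochondrial synthetases were higher, 15 and 14 were lower, and the medians were -0.55 and -0.58. With library totals 807 genes were higher, 3 cytosolic and 2 mitochondrial synthetases lower (Rars, Vars and Vars2 joined Eprs and Mars2) and the mitochondrial median was -0.22. DESeq2 called 2 cytosolic synthetases higher (Cars and Iars) and 0 mitochondrial ones. Leaving out 1 library at a time gave 916 to 1764 genes higher and 1278 to 1792 lower, 1 to 2 cytosolic and 0 to 1 mitochondrial synthetases higher, 0 to 2 cytosolic ones lower, a cytosolic median of -0.14 to -0.03 and a mitochondrial median of -0.17 to -0.05. With a replicate block 2 cytosolic synthetases were lower (Vars joined Eprs). Libraries of the same number did not deviate together (correlations -0.0379, -0.00235 and 0.0551), and 1 of 3 cKO libraries correlated best with its own number. With so few libraries this check cannot exclude that the numbers pair the samples. The mean log2 ratio of the cytosolic to the mitochondrial sum was 0.07 without Lars2, an alternative chosen after seeing the data. The causes were not tested. With 3 libraries per group, the number of samples and the unknown strand setting limit what these values can show.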
